A study of Mus musculus with 4 samples.

Results

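The transcripts described here are those of 8 alarmin and RAGE ligand genes, Hmgb1, Hmgb2, Il33, S100a4, S100a6, S100a10, S100a11 and Anxa1, picked by name from the 32285 genes counted in each section. All 8 were present in the 4 count tables and all passed the filter on low counts in every comparison. Sections of the upper branches of the lung, 10 µm thick, came from 2 vaped (V) and 2 non-vaped (NV) C57BL/6J mice, with 1 male and 1 female in each group and 1 section per mouse. V mice inhaled e-vapor of Peach Ice liquid (ORGNX, 70VG/30PG, the 0% vape group of the study) from JUUL pens in whole-body chambers for 4 h on 5 days of each week over 9 weeks, beginning at about 8 weeks of age, and NV mice were not exposed. On the Visium slides used, mRNA binds to barcoded spots below the tissue and each molecule receives a unique molecular identifier (UMI), and a spot covers several cells of different types.

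Alarmins are proteins that act inside the cell until injury or active secretion releases them, after which they bind receptors on neighbouring cells. HMGB1 and several S100 proteins are ligands of RAGE, the receptor encoded by Ager, which in the lung is most abundant on alveolar type 1 (AT1) cells. IL-33 signals through its own receptor, encoded by Il1rl1. Annexin A1 is a calcium-dependent membrane-binding protein whose released form acts on formyl peptide receptors. The comparisons of V with NV below concern their mRNA.

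Sections held 473 to 2053 spots and 6957392 to 34308556 UMIs, and levels are given as CPM, the UMIs of a gene in 1000000 UMIs of the spots concerned. Spots were assigned to the parenchyma where 6 alveolar and capillary genes (Calcrl, Tmem100, Cldn18, Hopx, Sftpb, Sftpc) together made up a share of UMIs of at least 50% of that over all spots, and otherwise to the upper airway. The NV male had 684 parenchyma and 158 upper airway spots, the NV female 348 and 125, the V male 1564 and 1, and the V female 1620 and 433. The V male section stood apart, as it also held 8.249 CPM of the cardiac muscle markers, against 6190 to 11141 in the other sections. AT1 and alveolar type 2 (AT2) markers were detected in all sections. Sections shared 277 to 1167 barcodes in pairs, and each section was treated as the replicate because its spots are not independent. In such sections, fewer cells of a type and less RNA per cell cannot be told apart.

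The members lie on 4 chromosomes in GRCm38. Hmgb1 lies at chr5:149046702-149184489 on the minus strand and Hmgb2 at chr8:57511907-57515999 on the plus strand. Il33 (chr19:29925114-29960718, plus strand) and Anxa1 (chr19:20373428-20390944, minus strand) share a chromosome. The S100 members all lie on the plus strand of chromosome 3, with S100a4 at chr3:90603771-90606045, S100a6 at chr3:90612882-90624181, S100a11 at chr3:93520488-93526287 and S100a10 at chr3:93555080-93564643. GENCODE names 10 pseudogenes of Hmgb1 and 1 of S100a11, so reads of these genes could have been split between copies, and their values are less certain for that reason.

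Upstream sequence from RefSeq (GRCm38.p6) was available for 7 of the 8 members. The 250 bases before the start are shown for S100a4 (chr3:90603520-90603769) and S100a6 (chr3:90612644-90612893), which lie close together on chromosome 3 with S100a5 between them. Their V and NV levels lay in opposite orders over the whole section, although the S100a4 levels of the females differed by a log2 ratio of only -0.010. Also shown are the related genes Hmgb1 (the more upstream of its 2 starts, chr5:149053058-149053307) and Hmgb2 (chr8:57511593-57511842). Capitals mark matches to any of the 3 motifs searched on both strands, none of which overlapped here. These were the TATA box (TATAAA). Another was the CCAAT box, with the letters of its name. The last was the GC box (GGGCGG).
S100a4: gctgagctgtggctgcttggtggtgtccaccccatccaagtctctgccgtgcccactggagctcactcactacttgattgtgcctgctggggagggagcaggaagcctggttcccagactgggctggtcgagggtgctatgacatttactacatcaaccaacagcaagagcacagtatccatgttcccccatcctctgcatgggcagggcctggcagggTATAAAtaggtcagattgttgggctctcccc
S100a6: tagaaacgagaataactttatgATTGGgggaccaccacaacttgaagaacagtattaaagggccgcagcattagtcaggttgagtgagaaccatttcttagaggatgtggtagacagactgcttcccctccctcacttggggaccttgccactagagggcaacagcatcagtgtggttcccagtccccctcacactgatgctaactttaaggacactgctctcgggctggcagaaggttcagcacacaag
Hmgb1: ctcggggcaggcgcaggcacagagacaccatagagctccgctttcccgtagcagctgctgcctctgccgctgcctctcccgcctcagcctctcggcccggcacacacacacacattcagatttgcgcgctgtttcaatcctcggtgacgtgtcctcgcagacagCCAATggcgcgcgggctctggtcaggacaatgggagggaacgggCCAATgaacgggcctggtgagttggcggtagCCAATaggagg
Hmgb2: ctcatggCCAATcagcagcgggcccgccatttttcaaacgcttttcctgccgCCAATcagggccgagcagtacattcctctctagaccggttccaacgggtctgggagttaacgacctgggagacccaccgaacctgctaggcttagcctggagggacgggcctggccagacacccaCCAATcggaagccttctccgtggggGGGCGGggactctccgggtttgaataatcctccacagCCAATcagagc
S100a4 held 1 TATA box, 31 bases before its start, which 12.4% of all 32851 promoter windows of this length hold. S100a6 held none of that motif and 1 CCAAT match. Hmgb1 held 3 CCAAT matches at this start and Hmgb2 held 4, where 33.8% of windows hold at least 1. The other Hmgb1 start (chr5:149051617-149051866), not printed here, held no CCAAT match and 4 GC boxes. Hmgb2 also held 1 GC box, a motif found in 32.7% of windows. A match is a run of letters and not evidence of binding.

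Across whole sections, no member was called between V and NV mice. In edgeR's quasi-likelihood test on UMIs summed per section, 0 of 8 members passed both thresholds for a call (adjusted p below 0.05 after Benjamini-Hochberg, and an absolute log2 fold change above 0.25), and 0% of the 14570 genes tested were called. At an unadjusted p under 0.05 there were 0 members and 248 genes. DESeq2's Wald test called 8 genes and limma on the mean CPM over spots 0, in neither case a member. The smallest adjusted p over all genes tested was 1, and with 2 mice in each group an exact two-sided permutation test cannot give a p below 0.33.

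Among the nuclear alarmins, Hmgb1, which encodes a chromatin protein that signals through RAGE and Toll-like receptors once released, lay at 218.9 and 203.1 CPM in the NV male and female and at 314.5 and 176.3 in the V male and female. The V mice thus held both the highest and the lowest level. Its log2 fold change, V over NV, was 0.16 ± 0.29 (SE, adjusted p = 1 by edgeR's quasi-likelihood test). Hmgb2, a relative of Hmgb1 linked to dividing cells, lay at 58.8 and 45.0 CPM in the NV male and female and at 75.7 and 36.3 in the V male and female, again with the V mice on either side of the NV mice. Il33, encoding a cytokine held in the nucleus, lay at 68.2 and 96.0 CPM in the NV male and female and at 85.9 and 77.1 in the V male and female. The V mice fell between the NV mice for this gene.

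For the S100 genes, which encode small calcium-binding proteins, the order of the groups was not the same from gene to gene. S100a6 lay at 897 and 1023 CPM in the NV male and female and at 1519 and 1093 in the V male and female, so both V mice were above both NV mice. Its log2 fold change was 0.40 ± 0.27 (SE, adjusted p = 1 in the edgeR fit). S100a4, known for its expression in macrophages and fibroblasts, lay at 102.9 and 70.4 CPM in the NV male and female and at 63.6 and 69.9 in the V male and female. Both V mice were below both NV mice, the females by a log2 ratio of -0.010 with a counting interval that spans 0 (95%, -0.151 to 0.130), at a log2 fold change over all mice of -0.39 ± 0.27 (SE, adjusted p = 1 in the edgeR fit).

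S100a10, whose product binds annexin A2, lay at 325.4 and 381.9 CPM in the NV male and female and at 291.2 and 289.1 in the V male and female. Both V mice were below both NV mice, with a log2 fold change of -0.31 ± 0.24 (SE, adjusted p = 1 in the edgeR fit). S100a11 overlapped between the groups, at 392.4 and 460.4 CPM in NV and 491.8 and 450.0 in V (male, then female in each). Anxa1 lay at 190.5 and 193.2 CPM in NV and at 277.9 and 201.2 in V in that order, so both V mice were above both NV mice (log2 fold change 0.28 ± 0.21, SE, adjusted p = 1 in the edgeR fit). In all, both V mice lay above both NV mice for 2 members and below for 2, where 12.6% and 14.4% of all genes tested did so.

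**Figure D1:**
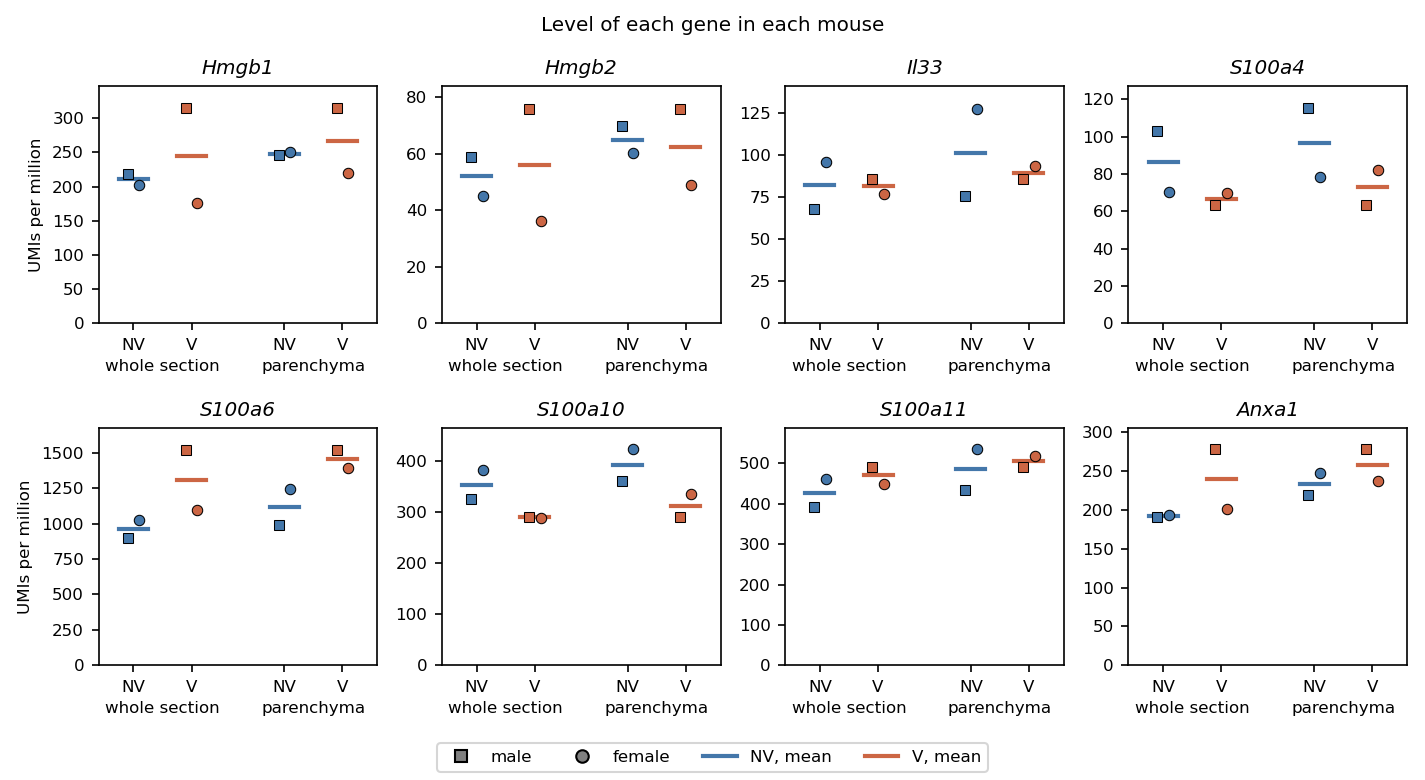
Level of each gene in CPM (vertical axes, each from 0) in each mouse, over the whole section and over parenchyma spots; squares are males, circles females, and bars the means of 2 mice. Over the whole section both V mice lie above both NV mice for S100a6 and Anxa1 and below them for S100a4 and S100a10, and in the parenchyma S100a6 alone lies above and S100a10 alone below.

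Within the parenchyma again no member was called between V and NV. The V male section still stood apart there, with 8.249 CPM of cardiac muscle markers against 3230 to 4828 in the other sections and 465.2 CPM of fibroblast markers against 1417 to 1589. Of the 8 members 0 were called, as were 0% of 14348 genes tested (0 members and 380 genes at an unadjusted p under 0.05; DESeq2's Wald test called 10 genes and limma on the mean CPM 0, none of them members). S100a6 came nearest, at 988 and 1247 CPM in the NV male and female and 1519 and 1393 in the V male and female. Both V mice were above both NV mice, by a log2 fold change of 0.39 ± 0.18 (SE, unadjusted p = 0.083, adjusted p = 0.999 in the edgeR fit). S100a10 lay at 360.3 and 423.5 CPM in the NV male and female and at 291.2 and 334.5 in the V male and female, below in both V mice (log2 fold change -0.31 ± 0.19, SE, adjusted p = 0.999 in the edgeR fit). These were 1 member above and 1 below without overlap, against 14.4% and 17.1% of all genes.

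The remaining members overlapped between the groups in the parenchyma. S100a4 lay at 115.2 and 78.3 CPM in the NV male and female and at 63.6 and 82.4 in the V male and female. Its log2 fold change was -0.40 ± 0.27 (SE, adjusted p = 0.999 in the edgeR fit), and it was called lower in V (-0.63) when the V female was left out, a fit in which 7.38% of 14154 genes were called lower and a lone V mouse is assumed to vary like the NV mice. Hmgb1 lay at 246.1 and 250.2 CPM in NV and at 314.6 and 220.1 in V, the V mice on either side of the NV mice. Hmgb2 (log2 fold change -0.06 ± 0.24, SE), Il33 (-0.16 ± 0.27, SE), S100a11 (0.07 ± 0.19, SE) and Anxa1 (0.16 ± 0.18, SE) all had fold changes smaller than their errors. The median log2 fold change of the 8 members was 0.005 beside 0.0084 over all genes tested.

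Some cell marker lists differed in level between V and NV in the parenchyma. Of all genes tested there, 14.4% lay above in both V mice and 17.1% below. The AT1 list (Pdpn, Rtkn2, Gprc5a, Clic5 and Akap5) summed in the parenchyma to 1456 and 1443 CPM in NV and to 2238 and 1658 in V, with 4 of 5 genes above in both V mice. Markers of interstitial macrophages summed to 419.9 and 495.7 in NV and to 236.6 and 392.4 in V, with 3 of 6 genes below in both V mice. The AT2 list summed to 4456 and 4479 in NV and to 3792 and 3615 in V, with 4 of 6 genes below in both V mice. Alveolar macrophage markers summed to 299.7 and 530.7 CPM in NV and to 653.9 and 720.9 in V, with 5 of 6 genes above in both V mice. Those of B and plasma cells summed to 372.1 and 336.0 CPM in NV and to 168.1 and 239.3 in V, with 4 of 5 genes below in both V mice. No gene of these lists was at 0 in any mouse. Their part in the values of S100a6, S100a4 and the other members was not tested.

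The males and females did not move alike. The log2 ratio of V to NV for Hmgb1 in the parenchyma was 0.354 in males (95% counting interval 0.273 to 0.436) and -0.185 in females (-0.287 to -0.083). Il33 had ratios of 0.189 in males and -0.452 in females. For S100a10 the ratios were -0.307 and -0.340, and for S100a6 they were 0.621 and 0.160, each of the same sign in the sexes. Each ratio compares 1 mouse with 1 mouse, and the intervals cover counting error only.

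**Figure D2:**
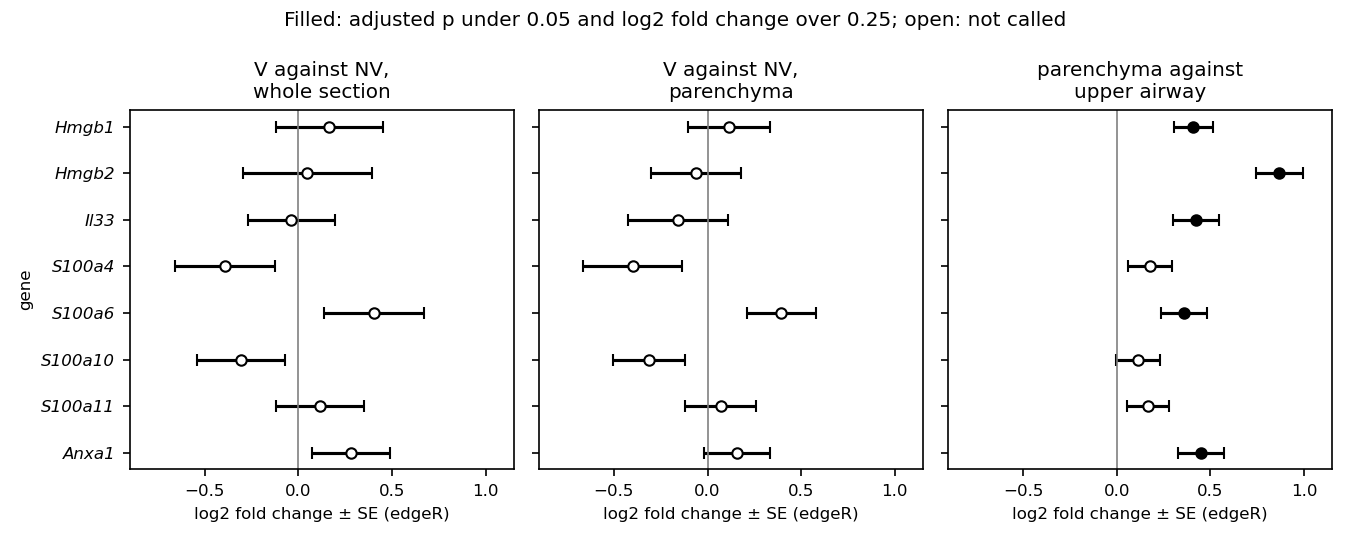
Log2 fold change of each gene with its SE (horizontal axes; edgeR) for V against NV over the whole section (n = 2 and 2 mice), V against NV in the parenchyma (n = 2 and 2), and parenchyma against upper airway within 3 mice; filled points are called and open points are not. The 5 filled points are all in the regional comparison, with Hmgb2 farthest to the right at 0.87.

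Between regions of the same section the members differed more clearly, and 5 of the 8 were called higher in the parenchyma than in the upper airway. The 3 mice with at least 50 spots in both regions entered this fit, with the mouse as a block, and called genes comprised 18.8% higher and 22.7% lower in the parenchyma among 13526 tested. Hmgb2 lay at 69.6, 60.2 and 48.9 CPM in the parenchyma of both NV mice (male, then female) and of the V female, and at 23.0, 27.0 and 21.2 in their upper airway. Its levels did not overlap between the regions, and its log2 fold change was 0.87 ± 0.13 (SE, adjusted p = 0.000386 by edgeR). Anxa1 rose by 0.45 ± 0.12 (SE, adjusted p = 0.0147, edgeR), from 97.1, 129.2 and 158.0 CPM in the upper airway to 218.6, 247.3 and 237.4 in the parenchyma of the same mice.

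Il33 was higher in the parenchyma by 0.43 ± 0.12 on the log2 scale (SE, adjusted p = 0.0193, edgeR), with 75.4, 127.6 and 93.3 CPM there and 44.2, 58.6 and 57.8 in the upper airway. Hmgb1 was higher by 0.41 ± 0.10 (SE, adjusted p = 0.0102, edgeR), with 246.1, 250.2 and 220.1 against 128.9, 147.4 and 123.9 CPM. S100a6 was higher by 0.36 ± 0.12 (SE, adjusted p = 0.042, edgeR). S100a4 (0.18 ± 0.12, SE), S100a11 (0.17 ± 0.11, SE) and S100a10 (0.11 ± 0.12, SE) were not called.

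In CPM all 8 members were higher in the parenchyma in each of the 3 mice, as were 62.6% of all genes tested. Cardiac muscle markers summed to 28373, 20146 and 9725 CPM in the upper airway of these mice and to 4828, 3520 and 3230 in the parenchyma, and their part in the result was not tested. The scaling changed the calls. With total UMIs alone in place of TMM all 8 members were called higher, 51.5% of genes were called higher and 13.8% lower, and the median log2 fold change of all genes moved from 0.0289 to 0.4531, so the smaller differences here hold only relative to that shift. Without the NV female only Hmgb2 was called, and without the V female S100a6 was not. The share of all genes called in each of these fits is not given here.

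In the upper airway itself, V against NV could be read from 1 V mouse only. Anxa1 lay at 158.0 CPM in the V female against 97.1 and 129.2 in the NV male and female. Hmgb1 lay at 123.9 CPM in the V female against 128.9 and 147.4 in the NV male and female. Hmgb2 lay at 21.2 against 23.0, from 50 UMIs, and 27.0, and S100a4 at 55.0 against 62.1 and 61.2. These genes were thus below both NV mice, by small margins from the nearer one. The other members lay between the NV mice. No test was made, and neither counting intervals nor the share of all genes outside the NV mice were computed, so these orders are not read as a result.

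Each member was next read in the 10% of spots of a section with the highest share of each of 18 cell marker lists, and set against the other spots of that section. This gives the surroundings of a transcript and not its cell of origin, since a spot is a small region, and no test was made. Of 144 pairs of a member and a list, 40 were higher in marker-rich spots in all 4 sections, which is 27.8%. Over all genes that were not in the list and passed a filter on low counts, this held for 12.2% of pairs, a share that includes genes with few UMIs. The share ran from 4.28% of genes in smooth muscle-rich spots to 23.7% in endothelium-rich spots. Of the 40 pairs, 33 also lay above the median of all genes in all 4 sections. S100a10 in AT1-rich spots (median log2 ratio less that of all genes, -0.024), Anxa1 in endothelium-rich spots (-0.054) and Hmgb2 in alveolar macrophage-rich spots (-0.008) did not exceed it in the median. The proliferating cell list (Mki67, Top2a and others) was sparse, at 24.41 to 56.36 CPM over whole sections. Every member but Il33 was higher in spots rich in it in all 4 sections, as were 18.3% of all genes. Hmgb2 with this list stood highest of the pairs. It lay at 130.8, 103.4, 94.0 and 69.0 CPM in rich spots (NV male, NV female, V male, V female), against 51.3, 40.3, 73.8 and 34.1 in the other spots, with a median log2 ratio of 1.18, or 1.02 above the median of all genes.

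Il33 was higher in spots rich in AT2 markers (Lamp3, Slc34a2, Abca3 and others) and in mesothelium markers. In AT2-rich spots it lay at 90.3, 152.2, 97.4 and 146.8 CPM in the same order of mice, against 65.3, 90.8, 84.6 and 72.1 in the other spots. In mesothelium-rich spots the median log2 ratio was 0.62, with section values from 0.282 to 1.137. Less the median of all genes, Il33 stood at 0.611 in mesothelium-rich, 0.488 in AT2-rich and 0.480 in fibroblast-rich spots. In fibroblast-rich spots it was higher in 3 of 4 sections, with a log2 ratio of -0.009 in the V male. Interstitial macrophage-rich spots had it higher in 4 of 4 sections, at 0.260 on that scale, but beyond counting error in 1. In ciliated-rich spots Il33 was lower in all 4 sections, at a median of -0.21, although beyond counting error in 1 of them. Of the 7 ciliated genes, 3 (Foxj1, Ccdc153 and Tmem212) were at 0 in the V male, so its ciliated-rich spots rest on the others.

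S100a4 had its highest median ratio, 0.68, in spots rich in interstitial macrophage markers. In spots rich in interstitial macrophage markers (C1qa, C1qb, C1qc, Csf1r, Ms4a7 and Mrc1) it lay at 182.0, 135.9, 77.0 and 90.4 CPM in rich spots of the mice in that order, against 94.3, 61.8, 62.3 and 68.0 in the other spots. The ratios were higher in the NV sections, with log2 values of 0.949 and 1.137, against 0.306 and 0.412 in V, a difference that was not tested. The median was 0.54 in proliferating cell-rich spots, 0.51 in fibroblast-rich spots and 0.38 in T cell-rich spots, higher in 4 of 4 sections for each list. The same held for 18.3%, 8.09% and 19.4% of all genes. For S100a4 the rise was beyond counting error in 3, 3 and 2 sections in that order of lists. The V male ratios were small, at 0.089, 0.037 and 0.105. In alveolar macrophage-rich spots it was 0.19, higher in 3 of 4 sections, and 0.051 above the median of all genes.

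S100a6, S100a11 and Anxa1 were all higher in AT1-rich spots. S100a6 lay there at 1169, 1552, 1878 and 1635 CPM, against 868, 980, 1488 and 1065 in the other spots, a rise beyond counting error in all 4 sections. The median log2 ratios were 0.52 for S100a6, 0.48 for Anxa1 and 0.36 for S100a11. Less the median of all genes, which ran from 0.022 to 0.201 over sections in these spots, they were 0.375, 0.376 and 0.186. S100a11 was not particular to AT1-rich spots. On that scale it stood at 0.202 in alveolar macrophage-rich and 0.191 in ciliated-rich spots, higher in 4 of 4 sections for each. Anxa1 also lay higher in ciliated-rich spots, at 249.9, 284.0, 301.4 and 334.2 against 185.1, 186.9, 276.1 and 187.1 CPM. Its median log2 ratio there was 0.52, and 0.429 less the median of all genes. The sections did not rank the 2 lists alike. The log2 ratios were 0.433, 0.604, 0.127 and 0.837 in ciliated-rich spots, and 0.361, 0.661, 0.388 and 0.569 in AT1-rich spots. The rise was beyond counting error in 3 sections for ciliated-rich and in 4 for AT1-rich spots. The ciliated-rich spots of the V male rest on fewer ciliated genes, as given above.

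The highest median ratio of S100a10 was 0.30, in spots rich in alveolar macrophage markers, or 0.129 above the median of all genes. Hmgb1 in endothelium-rich spots had a median log2 ratio of 0.33 and section values of 0.264, 0.401, 0.035 and 0.502, the third of these being the V male, beside medians of all genes of 0.162, 0.192, 0.019 and 0.181. Less those medians its ratio was 0.155 there, 0.163 in AT2-rich spots and 0.192 in neutrophil-rich spots (higher in 3 of 4 sections). In cardiac-rich spots the median over sections was below 0 for every member. As rich spots differ in depth and composition, the median of all genes there was not 0 either, and lay between -0.041 and 0.167 for the AT2 list and between -0.624 and -0.324 for the cardiac list in those 3 sections.

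**Figure D3:**
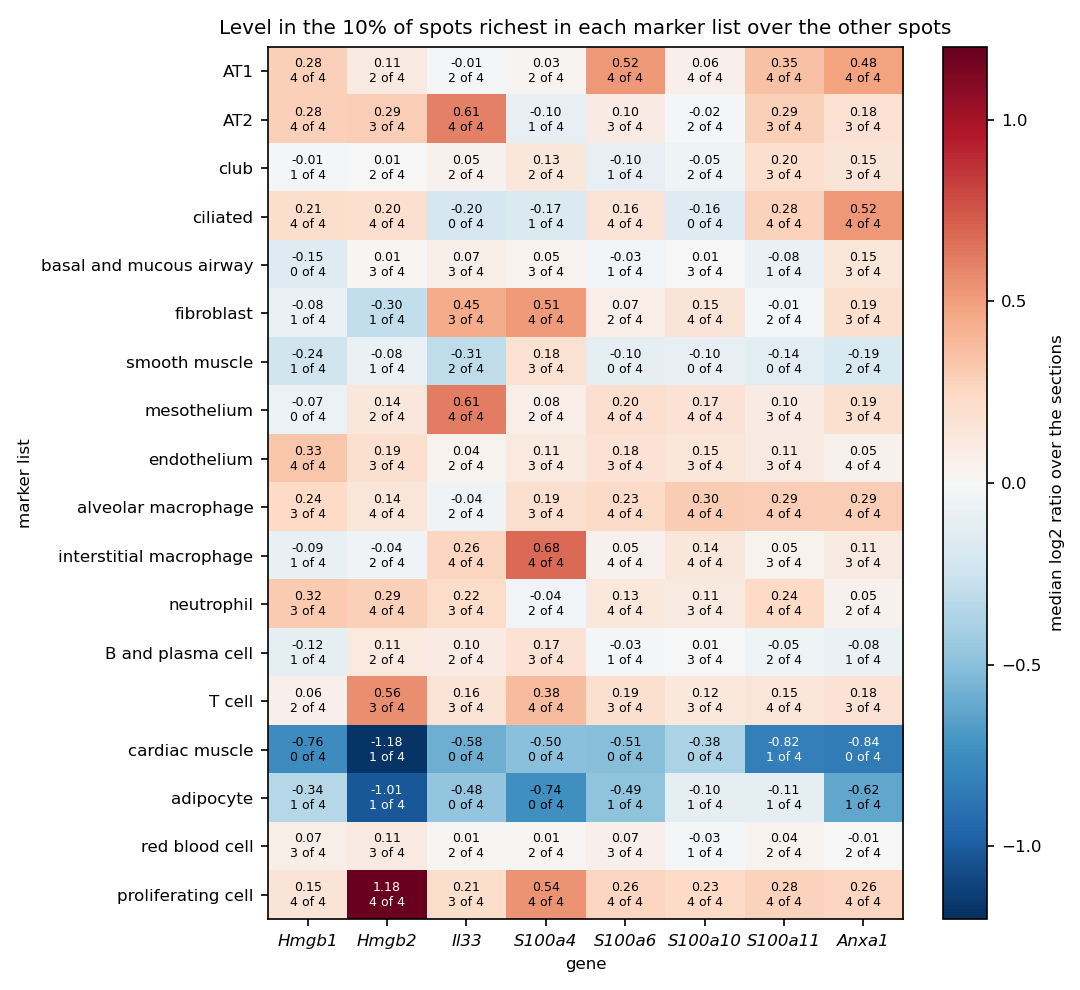
Median over sections of the log2 ratio of each gene's level in the 10% of spots richest in a marker list to its level in the other spots (colour and upper number), with the number of sections in which it was higher (lower number). Hmgb2 in proliferating cell-rich spots is the highest cell, at 1.18, and the cardiac muscle row is below 0 for all 8 genes.

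When only parenchyma spots were used, a check added after the data were seen, 23 pairs were higher in all 4 sections and 21 of them were among the 40. The share over all genes was not computed for the parenchyma alone. Hmgb2 in proliferating cell-rich spots (0.80), S100a4 in interstitial macrophage-rich spots (0.63), S100a6 in AT1-rich spots (0.34) and Il33 in mesothelium-rich spots (0.32) were among those 21. Anxa1 in ciliated-rich spots fell to 0.14 and Hmgb1 in endothelium-rich spots to 0.12, each still above 0 in 4 sections.

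**Figure D4:**
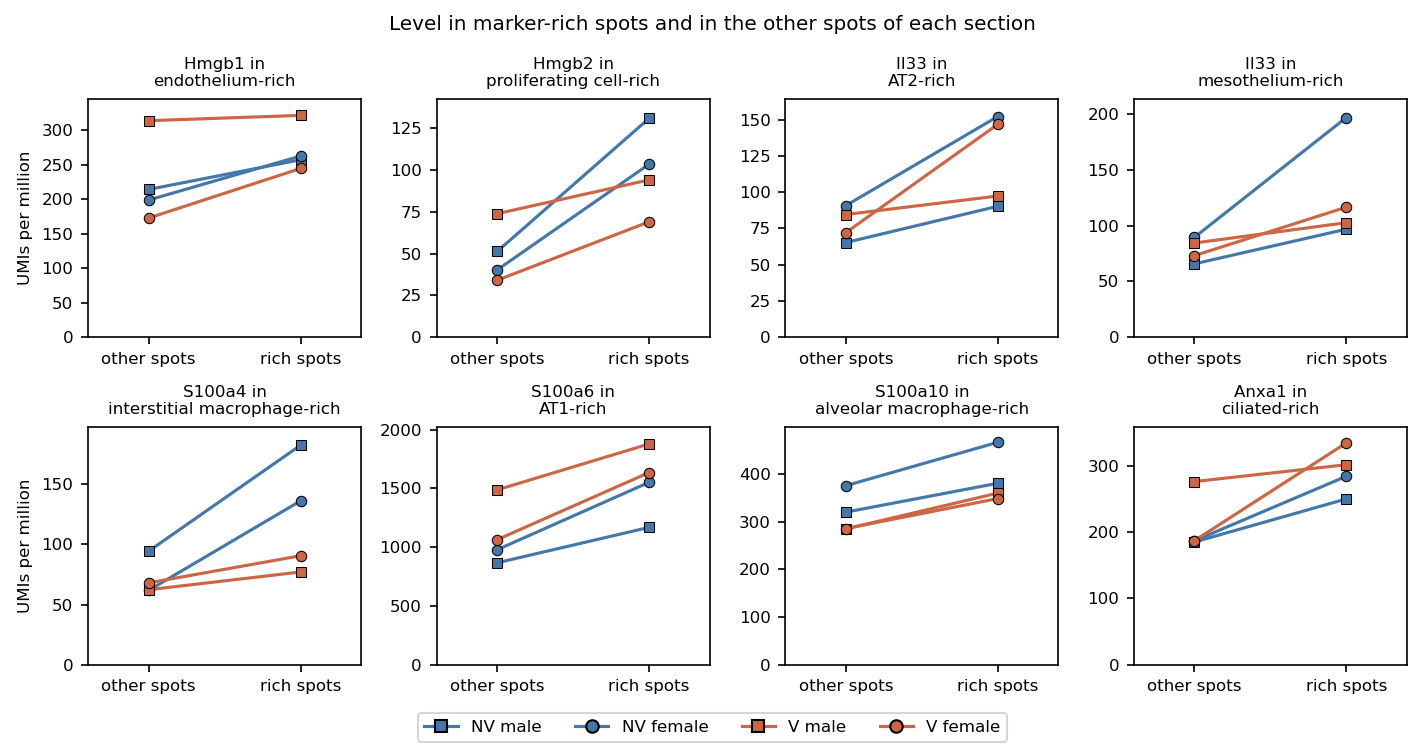
Level in CPM (vertical axes, each from 0) of selected genes in marker-rich spots and in the other spots, with 1 line for each mouse. The pairs of a gene and a list shown were picked from those higher in marker-rich spots in every section. That all lines rise follows from this choice and is not a separate result. The V male line is the flattest for Hmgb1, Hmgb2, Il33, S100a4 and Anxa1.

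After thinning each spot to 3000 UMIs, S100a6 was seen in 91.2%, 91.2%, 98.2% and 95.4% of spots (NV male, NV female, V male, V female), and before thinning in 93.3% to 99.0%. In the cardiac-rich spots of the NV male it was seen in 75% (median depth 15020 UMIs before thinning, against 9741 over all spots), so its presence in a spot says little about the cells there. Hmgb2 was seen in 15.3%, 13.3%, 21.2% and 11.8% of thinned spots, and in 10.3%, 6.38% and 5.45% of the cardiac-rich spots of the sections with heart muscle. Il33 was seen in 22.1% of spots of the V female (exact 95% binomial interval 20.3% to 24.1%) and in 24.3% of the cardiac-rich spots there (18.5% to 30.8%), a difference within counting error. In the NV male and female it was seen in 19.2% and 25.7% of spots, and in 17.6% and 17.0% of cardiac-rich spots. In CPM before thinning, Il33 was lower in cardiac-rich spots in all 4 sections, beyond counting error in 3. The V female was at 69.6 against 78.7 CPM. The median of all genes was also below 0 there in the sections with heart muscle. The spots left out as too shallow numbered 52 to 224 in a section.

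Spots with at least 1 UMI of a member were also set against spots with 0. Of the 144 pairs, 30 had a higher marker level in spots with the member in all 4 sections. The share over all genes was not computed for this comparison, so these 30 pairs cannot be set against it. These pairs depended on the depth of thinning, as 11 were found at 1000 UMIs, 7 of them among the 30. Il33 with mesothelium markers had a median log2 ratio of 0.61, from 190.5 against 111.7 CPM in the NV male to 284.0 against 242.0 in the V female. S100a6 with AT1 markers had a median of 0.40.

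Spearman's rho over thinned spots named the genes most like each member among 4600 compared. S100a6 was most like Ager (mean rho over 4 sections 0.223), Tmsb4x (0.197) and Hopx (0.196). The spots of a section share a library and were thinned to the same depth, and the part of their cell composition in these values was not tested. For the other members the highest mean was 0.114 or less, with Tmsb4x, Thbd and Lyz2 for Hmgb1, Taf11, Nmt2 and Tagln2 for Hmgb2, and Lyz2, Slc34a2 and Sftpc for Il33. Tmsb4x, Cst3 and Cd74 were named for S100a4, S100a6, Tmsb4x and Cd74 for S100a10, Tmsb4x, S100a6 and Mgp for S100a11, and Mgp, Ager and Tmsb4x for Anxa1. Values as low as these in sparse counts are no finding. Between members the highest mean rho was 0.090, for S100a6 and S100a10.

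Of the 52 other genes of the pathway, in 5 lists, 0 were called between V and NV in either the whole section or the parenchyma. Ager, encoding RAGE, had the smallest p of them in the parenchyma. It lay there at 1934 and 1919 CPM in the NV male and female and at 3134 and 2567 in the V male and female, with no overlap, and a log2 fold change of 0.57 ± 0.17 (SE, unadjusted p = 0.0187, adjusted p = 0.999 in the edgeR fit). Both V mice were above both NV mice for 14.4% of all genes tested there. The AT1 marker list was higher in V in the same spots (1456 and 1443 CPM in NV, 2238 and 1658 in V). Its part in the Ager values was not tested. Among the other receptors, Il1rl1 (the IL-33 receptor) had a log2 fold change of -0.95 ± 0.53 (SE) at 1.35 to 3.88 CPM, and Il1rap, its co-receptor, one of -0.39 ± 0.25 (SE).

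In the remaining lists no fold change between V and NV passed the test. Of the other S100 genes, 7 of 10 were tested in the parenchyma, with S100a13 at 0.31 ± 0.17 (log2 fold change, SE), S100a9 at 0.65 ± 0.72 and S100g at -0.10 ± 0.17. Of the annexins and S100 partners, Cacybp was at -0.65 ± 0.27, Anxa5 at 0.36 ± 0.19 and Anxa3 at 0.29 ± 0.18. Of the other alarmins and RAGE ligands, Tslp was at -0.37 ± 0.21, Hmgb3 at -0.38 ± 0.25 and Lgals3 at 0.33 ± 0.24. Below the receptors, Myd88, the adaptor of Toll-like and IL-1 family receptors, was at -0.29 ± 0.15, Irak4 at 0.44 ± 0.25 and Nfkb1 at -0.17 ± 0.14.

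Between regions, pathway genes were called in each list, beside 18.8% of all genes called higher and 22.7% lower with TMM. As total UMIs alone give 51.5% and 13.8%, counts of such calls move with the scaling. Receptors and co-receptors had 5 of 11 higher and 1 lower in the parenchyma, with Ager higher by 1.66 ± 0.13 (log2, SE, adjusted p = 1.05e-05, edgeR) and Thbd, encoding thrombomodulin, by 1.28 ± 0.13. Other S100 genes had 4 of 8 tested higher and 2 lower. S100g rose by 1.70 ± 0.14, whereas S100a1, which is abundant in heart muscle, was at -1.60 ± 0.14. Annexins and S100 partners had 5 of 10 higher and 1 lower (Anxa3, 0.95 ± 0.11, and Anxa4, 0.93 ± 0.12).

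The other alarmins and RAGE ligands had 4 of 10 tested higher and 1 lower. App, encoding the amyloid precursor protein, was higher by 0.86 ± 0.12, and Hmgb3 was lower, at -1.01 ± 0.15, unlike Hmgb1 and Hmgb2. Signalling genes had 6 of 10 higher and 0 lower, with Nfkbia at 0.65 ± 0.10 (adjusted p = 0.000719, edgeR) and Diaph1, whose product binds the cytoplasmic tail of RAGE, at 0.65 ± 0.12. The median log2 fold changes of the lists lay between 0.332 and 0.608 and that of the 8 members at 0.384, beside 0.0289 over all genes tested.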

How the data were processed

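Visium sections of 2 V and 2 NV mice were measured. The authors aligned reads with SpaceRanger 1.2.2 to the 10x reference for mm10 and deposited raw UMI counts per gene and spot. The normalization with Seurat 4.0.3 is not part of these counts. Here counts were summed per mouse and region. Sums were tested over all genes by the quasi-likelihood method of edgeR 4.0.16 (R 4.3.3), after TMM scaling and filterByExpr. As alternatives, DESeq2 1.42.0 was run on the sums, and limma 3.58.1 on log2 of the mean CPM over spots, with a pseudocount of 1 and each spot given the same weight. CPM were scaled to total UMIs alone. Section totals ran from 6957392 to 34308556 UMIs. Fits and spot comparisons were tested on simulated data. Counting intervals of ratios use a Poisson error, and those of shares are exact binomial intervals at 95%.

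Groups came from the sample labels. Replicate numbers there coincide with sex, and nothing marks a shared batch. Symbols were found in GENCODE vM21 for 97.3% of genes. The members and lists were chosen with earlier results of these data known. Named pathway genes were those with the smallest unadjusted p in each list, 3 for V against NV in the parenchyma and 2 between regions, and for each member the 3 genes most alike. Upstream sequences came from RefSeq. Alternatives varied the tool, scaling, filter, fold threshold, spot depth, region threshold, thinning, share of marker-rich spots and mice. Positions of spots were not analysed here.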

Additional observations from a re-analysis of the deposited data

Results flagged for a closer look

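The log2 ratio of V to NV had opposite signs in males and females for 3 members over the whole section and for 2 in the parenchyma, each with a counting interval that excludes 0. Over the whole section, Hmgb1 had ratios of 0.523 in males and -0.204 in females, Hmgb2 of 0.364 and -0.310, and Il33 of 0.334 and -0.316. In the parenchyma, Hmgb1 had ratios of 0.354 in males and -0.185 in females, and Il33 of 0.189 and -0.452. With 1 mouse for each sex and group, the difference between the sexes was not tested, and sex cannot be told apart from the tissue that each section held.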

How the results depend on the processing

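Genes called between V and NV over the whole section ran from 0 to 811 when single mice were left out (21 when the V male and 811 when the V female was left out) and in the parenchyma from 0 to 1483 (291 and 1483 for the same mice), with 0 to 1 members called there. DESeq2's Wald test called 8 genes over the whole section and 10 in the parenchyma, where no filter on low counts gave 5. The replicate number as a block gave 0 members and 0 genes called in both, as without it, and it marks only sex. Leaving out single mice turned the sign of the log2 fold change over the whole section for Hmgb1 (-0.19 to 0.44), Hmgb2 (-0.44 to 0.40), Il33 (-0.28 to 0.24) and S100a11 (-0.01 to 0.24), and in the parenchyma for Hmgb1 (-0.14 to 0.34), Hmgb2 (-0.38 to 0.21), Il33 (-0.47 to 0.24) and S100a11 (-0.05 to 0.20). Hmgb2 also turned with limma on the mean CPM over spots, which changes both the tool and its input (0.08), and S100a11 in the 50% of parenchyma spots lowest in cardiac and adipocyte markers (-0.01), an alternative chosen after seeing the data in which 0 genes were called. It replaced a limit of 1000 CPM on each list, which left 4, 2 and 10 spots in the sections other than that of the V male and was not fitted. S100a6, S100a10, S100a4 and Anxa1 kept their sign in all fits of V against NV. Between regions 8 members and 8839 genes were called with total UMIs alone. Members called numbered 3 with DESeq2's Wald test, 3 with a parenchyma threshold of 25%, 2 with no replicate block and 1 to 5 with single mice left out. The share of all genes called is not set beside those counts, so they are not read as a result about the members. All 8 members kept their direction in those fits. The pairs of a member and a list higher in all 4 sections numbered 11 in spots with the member at 1000 UMIs per spot, and 23 for marker-rich spots within the parenchyma. For neither was the share over all genes computed. The cause of these changes was not tested. With 2 mice in each group, the smallest adjusted p over all genes in the edgeR fits of all mice was 1 over the whole section and 0.999 in the parenchyma.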
